A study of Rattus norvegicus with 12 samples.

Results

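The Notch receptor genes Notch1, Notch2 and Notch3, the ligand genes Jag1, Dll1 and Dll4, and the target genes Hes1, Hey1, Hey2 and Heyl were followed in cultured neonatal rat heart muscle cells. These 10 genes were taken by their symbol in the array annotation from 14506 genes with 1 symbol each, and each had 1 probe set. RNA was measured on 12 Affymetrix whole-transcript arrays. The cells were primary cultures from Sprague Dawley rats, grown with bromodeoxyuridine for the first 4 days to hold back fibroblasts and described as over 90% myocytes. All had received an siRNA, either non-silencing (NS cells) or against p300 (p300kd cells), and all had spent 48 h without serum. They were collected before doxorubicin (0 h) or after 8 h in 1 µM of this anthracycline, an inhibitor of topoisomerase II. That gave 4 groups of 3 arrays, from 3 experiments, labelled as biological replicates 1 to 3. Arrays with the same number were taken to come from 1 experiment that held every group, which was inferred from their values. No culture was kept 8 h without the drug, so drug and time cannot be told apart. Whether the cultures of an experiment came from separate animals is not given, so p-values measure only the spread between these cultures.

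Notch receptors are cut within the membrane when a ligand on a neighbouring cell binds them. The freed intracellular domain enters the nucleus, joins the DNA-binding protein RBPJ and a Mastermind protein, and recruits acetyltransferases such as p300 to switch on genes of the HES and HEY families, which are transcriptional repressors. In the heart the pathway is known for the patterning of valves and chambers, for the choice between cycling and differentiated states in young myocytes, and for vessel maturation, where Dll4 and Notch1 act in endothelium and Notch3, Heyl and Jag1 in mural cells. The comparisons ask how these genes differed after doxorubicin, how they differed with the p300 siRNA, and whether their drug response differed with it.

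Promoter windows of 3 members are shown because RBPJ binds the core GTGGGAA and, of those listed, only these held it. RefSeq promoters (assembly GRCr8, 250 bases before to 50 from the transcript start) were listed for 8 of the 10 members, all but Dll4 and Hey1. The sequences run 5′ to 3′ along the gene's strand, with the core in capitals. Hes1 lies on the minus strand at chr11:84212996-84213295, Hey2 on the plus strand at chr1:28640850-28641149 and Dll1 on the minus strand at chr1:64993225-64993524. In Hes1 the core began 124 bases before the start and in Hey2 61 bases before it. In Dll1 it lay on the opposite strand, so its complement TTCCCAC is capitalised, 185 bases before the start.
Hes1: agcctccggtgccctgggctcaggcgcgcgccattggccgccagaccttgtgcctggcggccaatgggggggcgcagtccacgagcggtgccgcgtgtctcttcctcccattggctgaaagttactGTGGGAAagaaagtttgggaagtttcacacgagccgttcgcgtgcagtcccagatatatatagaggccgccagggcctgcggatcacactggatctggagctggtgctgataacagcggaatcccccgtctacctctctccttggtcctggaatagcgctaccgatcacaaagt
Hey2: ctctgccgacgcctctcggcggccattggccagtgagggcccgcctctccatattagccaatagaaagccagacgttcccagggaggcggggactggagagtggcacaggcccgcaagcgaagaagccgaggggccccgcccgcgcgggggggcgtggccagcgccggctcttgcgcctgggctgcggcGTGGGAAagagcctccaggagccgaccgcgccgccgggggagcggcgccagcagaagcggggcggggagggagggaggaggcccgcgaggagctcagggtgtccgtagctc
Dll1: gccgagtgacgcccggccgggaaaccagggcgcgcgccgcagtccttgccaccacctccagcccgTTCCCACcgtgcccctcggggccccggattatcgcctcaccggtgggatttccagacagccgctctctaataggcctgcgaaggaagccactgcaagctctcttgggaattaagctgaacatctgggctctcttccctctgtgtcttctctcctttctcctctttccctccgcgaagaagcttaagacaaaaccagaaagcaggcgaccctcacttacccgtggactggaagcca

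The core was present on either strand in 3 of the 8 windows and in 6.19% of 27457 rat promoter windows of the same length. The HES and HEY binding motif CACGTG was in 0 of 8 member windows and 6.65% of all, CACGCG in 4 of 8 (Notch2, Jag1, Hes1 and Heyl) and 9.06%, and CACNAG in 3 of 8 (Notch1, Notch3 and Hes1) and 42.8%. No match overlapped a core in the windows shown. These are letter matches, not binding sites.

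Values are log2 of the deposited intensity, and a difference of 1 is a doubling. Differences are taken within a probe set, since brightness also depends on the probes. Levels set beside those of other probe sets are a description only. The median standard error (SE) of a drug difference over all genes was 0.0951. The siRNA was checked on Ep300, which encodes p300. Its mean was 11.11 ± 0.0838 (SD, n = 3) in NS cells and 10.16 ± 0.215 (SD, n = 3) in p300kd cells at 0 h, and 10.77 ± 0.0817 and 9.85 ± 0.233 (SD, n = 3 each) at 8 h. Ep300 was thus left at 51.9% of its NS level at 0 h and 52.9% at 8 h (log2 change -0.95 and -0.92, limma adjusted p = 0.0404 and 0.0271). These calls, adjusted over all genes, were lost in 13 and 12 of 26 alternatives, while the change at 0 h stayed between -1.07 and -0.87. The 14 measured myocyte markers stood between 11.51 (Ttn) and 14.15 (Actc1) as means over all arrays. The 12 endothelial markers stood between 6.25 (Emcn) and 9.22 (Flt1), the 11 smooth muscle and pericyte markers between 7.97 (Kcnj8) and 14.19 (Acta2), and the 12 fibroblast markers between 8.91 (Mfap5) and 13.75 (Fn1). All 14 myocyte and 12 fibroblast markers, 10 of 11 smooth muscle and pericyte, 2 of 12 endothelial and 3 of 10 macrophage and leukocyte markers lay above the median of all genes, 8.57. In these cultures fewer cells of a type and less RNA per cell cannot be told apart. Listed genes need not be confined to 1 cell type, and which cells their RNA came from was not tested.

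After doxorubicin the receptors did not move together. Notch1 rose and Notch2 fell in both kinds of cell, and Notch3 was higher in every experiment without passing the test. In NS cells Notch1 stood at 9.46, 9.35 and 9.34 in experiments 1, 2 and 3 before the drug and at 10.21, 10.13 and 10.13 after it. Notch1 in p300kd cells stood at 9.47, 9.40 and 9.36 before and at 10.19, 10.10 and 10.16 after. All 6 treated arrays lay above all 6 untreated ones. The rise was 0.77 in NS cells (SE 0.0743, 1.71-fold, limma adjusted p = 1.355e-05) and 0.74 in p300kd cells (SE 0.0743, 1.68-fold, limma adjusted p = 1.416e-05). Among 14506 genes it was the 115th largest rise in NS cells and the 172nd in p300kd cells.

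Notch2, a broadly expressed receptor, went the other way. In NS cells Notch2 stood at 10.93, 10.67 and 10.75 before the drug and at 10.51, 10.35 and 10.31 after it. Notch2 in p300kd cells stood at 10.89, 10.67 and 10.87 before and at 10.49, 10.18 and 10.15 after. Treated and untreated arrays did not overlap in either kind of cell. The change was -0.39 in NS cells (SE 0.110, limma adjusted p = 0.0186) and -0.54 in p300kd cells (SE 0.110, limma adjusted p = 0.00249). In NS cells the call was lost without experiment 2 (limma adjusted p = 0.0988) or 3 (0.150), and without NS 0 h array 1 (0.0812), NS 8 h array 2 (0.0568) or NS 8 h array 3 (0.0683). In p300kd cells it was lost without experiment 3 (limma adjusted p = 0.0770).

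Notch3, the receptor of vascular smooth muscle and pericytes, stood far apart between experiments. In NS cells Notch3 stood at 10.45, 9.74 and 9.99 before the drug and at 10.76, 10.29 and 10.53 after it. Notch3 in p300kd cells stood at 10.38, 9.62 and 9.96 before and at 10.53, 10.16 and 10.33 after. Treated and untreated arrays overlapped, because experiment 1 was highest in every group, but within each experiment the treated value was higher. The difference was 0.46 in NS cells (SE 0.206, limma adjusted p = 0.116) and 0.35 in p300kd cells (SE 0.206, limma adjusted p = 0.218). With the experiment as a block, which compares arrays within an experiment, both passed (limma adjusted p = 1.523e-04 and 0.00124). They also passed without experiment 1 (limma adjusted p = 0.0234 and 0.0401), and in NS cells without NS 0 h array 1 (0.0381).

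**Figure D1:**
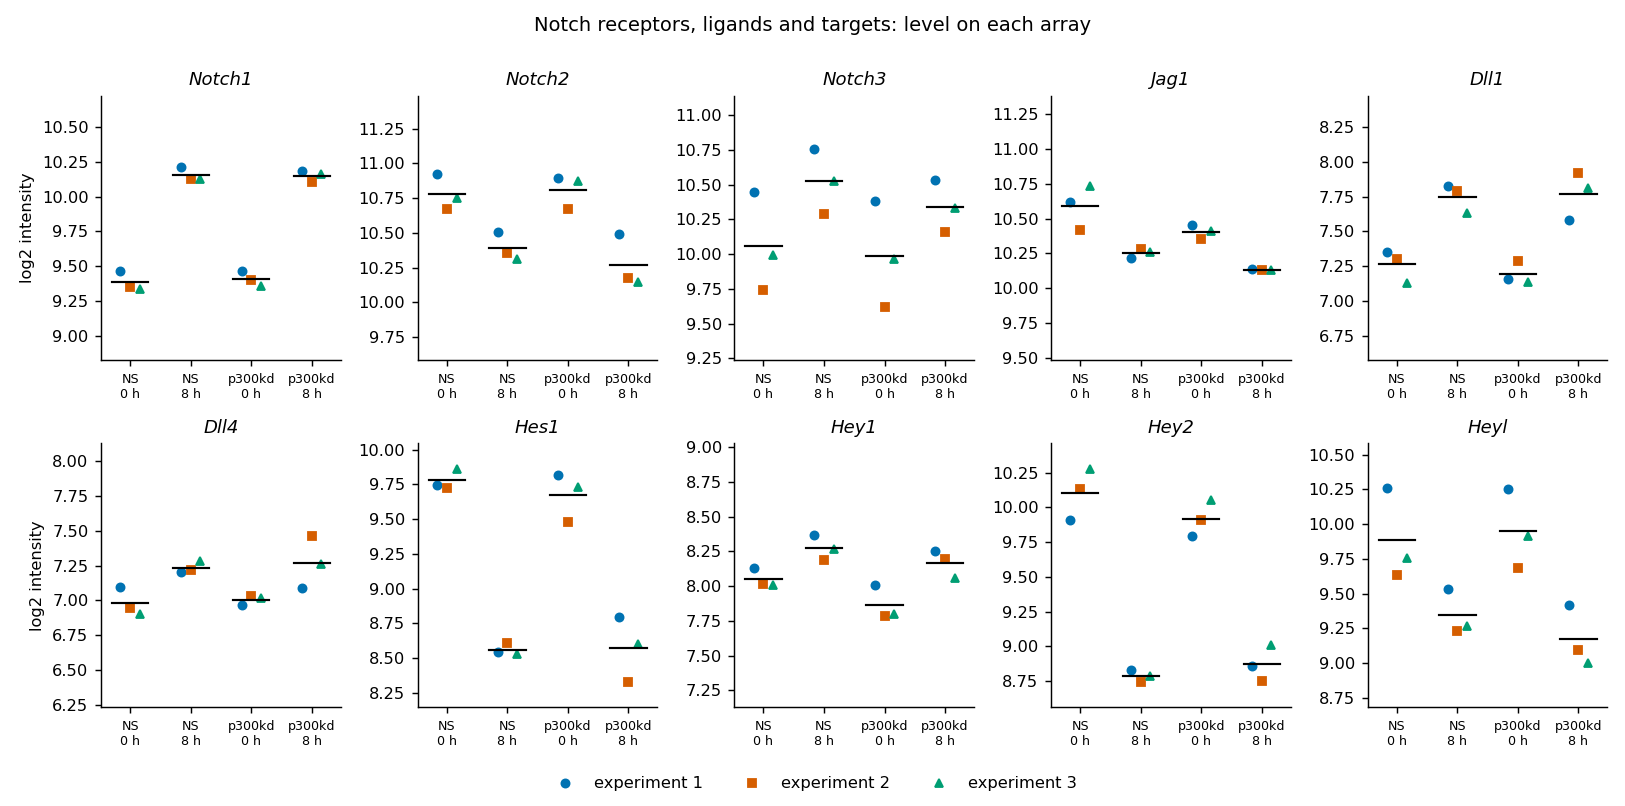
Log2 intensity of the 10 Notch receptor, ligand and target genes on each of the 12 arrays, in 4 groups of 3, with symbols for the experiment and a bar for the group mean. The panels have separate axes that span the same range of log2 units. Hes1 and Hey2 fall and Notch1 rises in both kinds of cell with no overlap, and the experiment 1 symbols stand highest in all 4 groups for Notch3 and Heyl.

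The ligands among the members moved both ways. The Delta-like ligands Dll1 and Dll4 rose after doxorubicin and Jag1, the Jagged ligand that signals to mural cells, fell. In NS cells Dll1 stood at 7.35, 7.30 and 7.13 before the drug and at 7.83, 7.79 and 7.63 after it. Dll1 in p300kd cells stood at 7.16, 7.29 and 7.14 before and at 7.58, 7.92 and 7.81 after. Every treated array lay above every untreated one. The rise was 0.49 in NS cells (SE 0.0979, limma adjusted p = 0.00266) and 0.58 in p300kd cells (SE 0.0979, limma adjusted p = 7.149e-04).

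Dll4, the tip cell ligand of sprouting vessels, was the dimmest member, with array values between 6.90 and 7.46. In NS cells Dll4 stood at 7.10, 6.95 and 6.90 before the drug and at 7.20, 7.22 and 7.28 after it. Dll4 in p300kd cells stood at 6.97, 7.03 and 7.02 before and at 7.09, 7.46 and 7.26 after. The arrays did not overlap between times within a kind of cell, and the differences were 0.26 (SE 0.0894, limma adjusted p = 0.04999) and 0.27 (SE 0.0894, limma adjusted p = 0.0372). The NS call lay at the threshold. It was lost in 14 of 25 alternatives, among them leaving out experiment 2 or 3 (limma adjusted p = 0.166 and 0.384) and any array except NS 0 h array 1 and p300kd 8 h arrays 1 and 2 (0.0578 to 0.156). The p300kd call was lost in 9 of 25, among them leaving out experiment 2 or 3 (limma adjusted p = 0.273 and 0.179) and any p300kd array except the 8 h array of experiment 1 (0.0718 to 0.162).

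In NS cells Jag1 stood at 10.62, 10.42 and 10.74 before the drug and at 10.22, 10.28 and 10.26 after it. Jag1 in p300kd cells stood at 10.45, 10.35 and 10.41 before and at 10.14, 10.13 and 10.13 after. Treated arrays lay below untreated ones in each kind of cell. The change was -0.34 in NS cells (SE 0.0846, limma adjusted p = 0.00984) and -0.27 in p300kd cells (SE 0.0846, limma adjusted p = 0.0253). In NS cells the call was lost without experiment 1 (limma adjusted p = 0.0636) or 3 (0.162). In p300kd cells it was lost without experiment 1, 2 or 3 (limma adjusted p = 0.108, 0.0835 and 0.141) and without p300kd 0 h array 1 or 3 or p300kd 8 h array 2 or 3 (0.0623 to 0.0795).

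The targets held the largest changes of the family. Hey2 and Hes1 each fell by more than a factor of 2 in both kinds of cell, Heyl fell less, and Hey1 rose in p300kd cells. Hey2 is a repressor of the ventricular myocardium, where it holds back atrial genes. In NS cells Hey2 stood at 9.91, 10.13 and 10.27 before the drug and at 8.83, 8.75 and 8.79 after it. Hey2 in p300kd cells stood at 9.79, 9.91 and 10.05 before and at 8.86, 8.75 and 9.01 after. The 6 treated arrays lay well below the 6 untreated ones. Hey2 was left at 40.1% of its untreated level in NS cells (log2 change -1.32, SE 0.108, limma adjusted p = 4.09e-06) and at 48.4% in p300kd cells (-1.05, SE 0.108, limma adjusted p = 1.758e-05). It was the 63rd and the 205th largest fall among all genes.

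Hes1, the general Notch target that represses differentiation genes, fell alongside. In NS cells Hes1 stood at 9.75, 9.73 and 9.86 before the drug and at 8.54, 8.61 and 8.53 after it. Hes1 in p300kd cells stood at 9.82, 9.48 and 9.73 before and at 8.80, 8.33 and 8.60 after. No treated array reached an untreated one. Hes1 was left at 43.0% of its untreated level in NS cells (log2 change -1.22, SE 0.119, limma adjusted p = 1.487e-05) and at 46.7% in p300kd cells (-1.10, SE 0.119, limma adjusted p = 2.491e-05). These were the 88th and the 163rd largest falls. Hes1 and Hey2, whose promoter windows are printed above, thus fell while Dll1, the third member with the core, rose.

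In NS cells Heyl, a HEY factor of vascular smooth muscle, stood at 10.26, 9.64 and 9.76 before the drug and at 9.54, 9.23 and 9.27 after it. Heyl in p300kd cells stood at 10.25, 9.69 and 9.91 before and at 9.42, 9.09 and 9.002 after. Treated arrays lay below untreated ones in each kind of cell, with experiment 1 highest throughout. The change was -0.54 in NS cells (SE 0.179, limma adjusted p = 0.0411) and -0.78 in p300kd cells (SE 0.179, limma adjusted p = 0.00523). The NS call was lost in 10 of 26 alternatives. These included leaving out experiment 2 or 3 (limma adjusted p = 0.122 and 0.181), NS 0 h array 1 (0.172) or 3 (0.0557), NS 8 h array 2 (0.120) or 3 (0.113), p300kd 0 h array 3 (0.0520) and p300kd 8 h array 2 (0.0520). The p300kd call was lost without experiment 3 (limma adjusted p = 0.0849).

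Hey1, the remaining HEY factor, had array values between 7.78 and 8.37. Its means in NS cells were 8.05 ± 0.0701 (SD, n = 3) at 0 h and 8.28 ± 0.0907 (SD, n = 3) at 8 h. In p300kd cells they were 7.87 ± 0.127 and 8.17 ± 0.101 (SD, n = 3 each). Treated and untreated arrays did not overlap within a kind of cell. The difference of 0.22 in NS cells did not pass (SE 0.0879, limma adjusted p = 0.0764; 0.0175 with the experiment as a block). Hey1 rose by 0.30 in p300kd cells (SE 0.0879, limma adjusted p = 0.0191), a call lost without experiment 2 or 3 (0.207 and 0.103), p300kd 0 h array 2 or 3 (0.0760 and 0.0684) or p300kd 8 h array 1 or 2 (0.0598 and 0.0601).

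**Figure D2:**
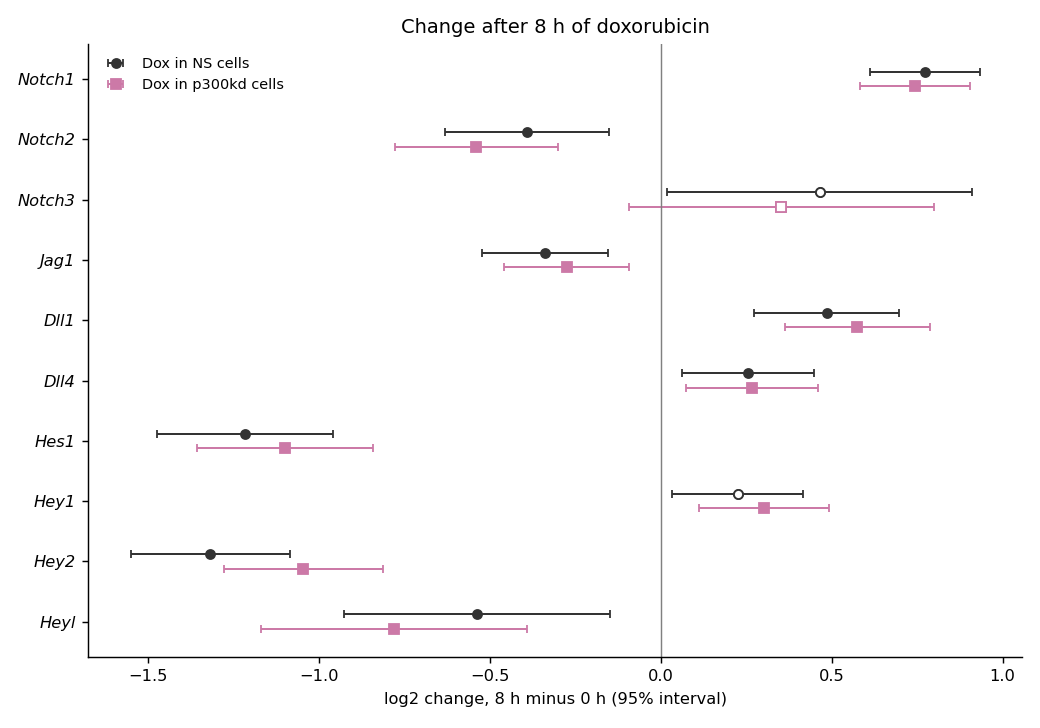
Log2 change after 8 h of doxorubicin for each of the 10 genes, in NS cells (circles) and p300kd cells (squares), with 95% intervals from the limma fit; filled symbols have an adjusted p under 0.05 and open ones do not. Notch1, Dll1, Dll4 and Hey1 lie above 0, Notch2, Jag1, Hes1, Hey2 and Heyl below it, and the Notch3 interval in p300kd cells crosses 0.

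Over the 10 genes, 8 passed the test in NS cells, 3 of them higher and 5 lower, where 27.5% of all genes passed, 11.1% higher and 16.4% lower. In p300kd cells 9 passed, 4 higher and 5 lower, where 31.4% of all genes passed, 13.9% higher and 17.5% lower. In both kinds of cell 8 genes were called in the same direction, which held for 23.5% of all genes. With the experiment as a block all 10 passed in each kind of cell, beside 43.5% and 45.8% of all genes. The groups did not overlap for 9 members in each kind of cell, against 41.3% and 43.2% of all genes, Notch3 being the exception. Within experiments each member kept 1 sign in all 6 drug differences, as 51.4% of all genes did. The median absolute change was 0.48 for the members and 0.16 for all genes in NS cells, and 0.56 and 0.17 in p300kd cells. The median signed change was close to 0 for the members, -0.057 and -0.0038, beside 0.036 and 0.041 for all genes. The members, and the pathway list below, were chosen with earlier results of these data known. Their counts and medians beside those of all genes are therefore a description.

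Leaving out experiment 2 left 5 members called in NS cells and leaving out experiment 3 left 4, on 8 arrays. Without NS 8 h array 2 or 3 there were 5, and in p300kd cells 4 without experiment 3. Notch1, Dll1, Hes1 and Hey2 passed in both kinds of cell in all 26 alternatives. Centring each array on its median shifted the median of all genes by 0.10 in both kinds of cell, to 3800 genes higher and 1832 lower in NS cells from 1617 and 2375, and to 4344 and 1991 in p300kd cells from 2017 and 2543. The members then split 5 higher and 3 lower in NS cells and 4 and 4 in p300kd cells.

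Of 79 further genes listed for the pathway, 68 were measured. In NS cells 10 rose and 21 fell, and in p300kd cells 12 rose and 23 fell, with a median change of -0.047 and -0.059. Over all genes 27.5% and 31.4% passed, 11.1% higher and 16.4% lower in NS cells and 13.9% and 17.5% in p300kd cells. With arrays centred on their median the list split 16 higher and 16 lower in NS cells and 19 and 16 in p300kd cells. With quantile normalisation repeated it split 12 and 17 in NS cells and 15 and 19 in p300kd cells. The larger number of falls thus held under repeated quantile normalisation but not under median centring. Receptors and ligands outside the 10 members did not pass: Notch4 differed by 0.099 and 0.0076 in NS and p300kd cells, and the non-canonical ligand Dlk1 by 0.18 and 0.043. Jag2, the other Jagged ligand, differed by 0.16 and 0.29, opposite in sign to Jag1, and Dll3 by 0.051 and 0.12. With the experiment as a block Dlk1 passed in NS cells and Jag2 in p300kd cells (limma adjusted p = 0.0318 and 0.0106).

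The enzymes that ready ligands and receptors moved both ways. Of 3 ubiquitin ligases that act on ligands, Neurl1 rose by 0.32 in NS and 0.35 in p300kd cells and Neurl1b changed by -0.52 and -0.39, while Mib1, the main ligase for ligand endocytosis, differed by 0.099 and 0.22 without passing. Among 5 glycosyltransferases, the O-glucosyltransferase Poglut1 rose by 0.53 and 0.51. Lfng, the Fringe enzyme that tunes receptors toward Delta-like ligands, differed by 0.22 in NS cells and rose by 0.34 in p300kd cells (limma adjusted p = 0.168 and 0.0339). Pofut1, which adds the fucose that Fringe extends, differed by 0.17 and 0.19 without passing.

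The 7 measured receptor cleavage genes gave 3 rises and 1 fall in NS cells and 2 rises and 2 falls in p300kd cells. Furin, which makes the first cut of the receptor, rose by 0.24 in each kind of cell. Within gamma-secretase, Ncstn rose by 0.28 and 0.29, and Psen2 changed by -0.26 and -0.31. Aph1b rose by 0.27 in NS cells and differed by 0.19 in p300kd cells, and Aph1a differed by -0.11 in NS cells and changed by -0.26 in p300kd cells. Psenen differed by 0.021 and -0.047 without passing.

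Of 8 genes of nuclear activation, 4 fell and 1 rose in each kind of cell. Kat2a changed by -0.66 and -0.73, the co-activator Snw1 by -0.44 and -0.55, Crebbp, the close relative of Ep300, by -0.36 in each, and the Mastermind gene Maml3 by -0.30 and -0.39. Kat2b, an acetyltransferase like Kat2a, rose by 0.51 and 0.61. Ep300 itself differed by -0.34 and -0.31 (limma adjusted p = 0.0641 and 0.0783; 0.00153 and 0.00249 with the block). Rbpj, named here outside the naming rule after its values were seen, stood at 9.93, 9.97 and 9.86 before and 9.61, 9.72 and 9.18 after the drug in NS cells. The Rbpj difference was -0.41 in NS cells and -0.31 in p300kd cells (limma adjusted p = 0.0530 and 0.124; 0.00154 and 0.00916 with the block).

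Among 10 corepressor genes Hdac1, the histone deacetylase, rose by 0.39 and 0.47, while Ncor1 changed by -0.31 and -0.29 and the Groucho gene Tle3 by -0.31 and -0.46. Hdac2 and Tle1 rose in p300kd cells, by 0.33 and 0.37, and differed by 0.15 and 0.22 in NS cells. Ctbp1 differed by -0.058 and -0.065 without passing. The 7 genes of receptor turnover and inhibition held 1 rise in each kind of cell, Nrarp, with 3 falls in NS cells and 5 in p300kd cells. Nrarp is a Notch target that limits the Notch complex, and it stood at 8.31, 8.50 and 8.44 before and at 9.32, 9.01 and 9.07 after the drug in NS cells. In p300kd cells Nrarp stood at 8.64, 8.74 and 8.58 before and at 9.43, 9.45 and 9.30 after. Its rise, 0.72 and 0.74 (limma adjusted p = 1.654e-04 and 1.083e-04), ran opposite to Hes1 and Hey2. The falls were Numb (-0.39 and -0.28), an inhibitor that sorts receptors for degradation, and the ubiquitin ligases Itch (-0.29 and -0.27) and Dtx4 (-0.45 and -0.54). In p300kd cells Numbl (-0.43) and Dtx2 (-0.44) fell too, with differences of -0.32 and -0.25 in NS cells that did not pass, and Sel1l differed by 0.11 and 0.16 without passing.

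The 10 measured genes of related helix-loop-helix factors gave 1 rise and 5 falls in NS cells and 1 rise and 4 falls in p300kd cells. Bhlhe41, a repressor of the clock, changed by -1.47 and -1.25, its relative Bhlhe40 by -0.68 and -0.71 and Id3, an inhibitor of helix-loop-helix factors, by -0.58 and -0.61. Hes6, which opposes Hes1, rose by 0.36 and 0.52, and Hes5 differed by 0.012 and 0.096 without passing. Of 14 heart genes linked to HEY factors or Notch, 5 fell and 1 rose in each kind of cell. The ventricular factor gene Irx4 changed by -1.75 and -1.88, Gata4 by -1.41 and -1.50, Tbx5 by -1.23 and -0.95 and Gata6 by -1.14 and -1.05. Nrg1, the neuregulin gene of endocardium, rose by 0.42 in NS cells and differed by 0.21 in p300kd cells. Efnb2, the arterial ephrin gene, differed by 0.15 in NS cells and rose by 0.33 in p300kd cells. The atrial natriuretic peptide gene Nppa differed by 0.097 and 0.072 without passing.

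Of these genes Poglut1, Kat2a, Nrarp, Bhlhe40, Bhlhe41, Id3, Gata4, Gata6, Tbx5 and Irx4 passed in both kinds of cell in all 26 alternatives. In NS cells 10 of the 31 calls and in p300kd cells 15 of the 35 held in all of them, and each of the rest was lost without experiment 2 or 3. The 31 calls of the list in NS cells became 12 without experiment 2 and 13 without experiment 3. The 35 in p300kd cells became 20 and 16. With the experiment as a block they were 43 and 46. Of the genes given above as not passing, the block brought in Pofut1, Lfng, Hdac2, Tle1, Numbl, Dtx2 and Nppa in NS cells (limma adjusted p = 9.653e-04 to 0.0446) and Pofut1, Aph1b and Nrg1 in p300kd cells (0.0118 to 0.0248).

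**Figure D3:**
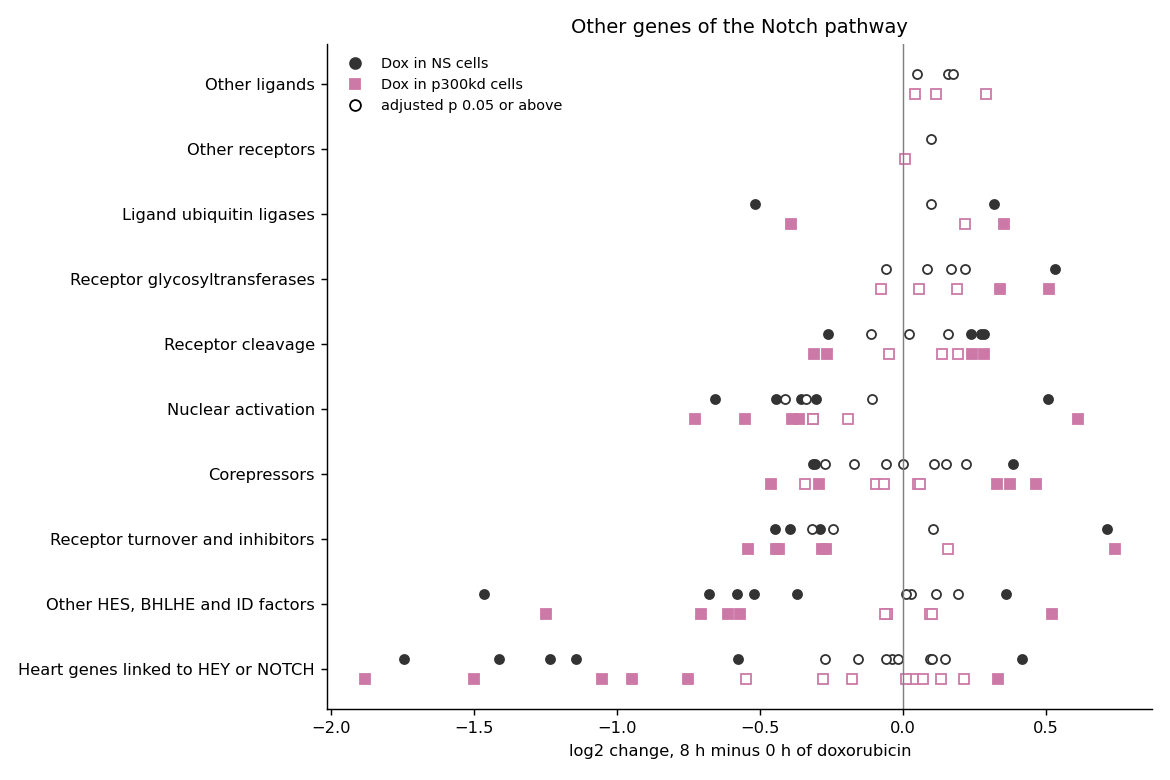
Log2 change after 8 h of doxorubicin for the 68 measured further genes of the pathway, 1 symbol per gene, by class and kind of cell; filled symbols have an adjusted p under 0.05 and open ones do not. Falls of more than 1 log2 unit lie only in the related helix-loop-helix factors and the heart genes, led by Irx4 at -1.88.

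No member passed the test for the p300 siRNA. At 0 h the p300 siRNA called 0 of the 10 members and 0.0207% of all genes, and at 8 h 0 members and 0.0483% of all genes. Averaged over both times it called 0 members and 1.25% of all genes. With the experiment as a block the counts were again 0 for the members, beside 2.69%, 3.14% and 9.51% of all genes. At an unadjusted p under 0.05 there were 1, 0 and 2 members, beside 6.95%, 7.96% and 12.7% of all genes. Member differences ran from -0.19 to 0.065 at 0 h and from -0.18 to 0.085 at 8 h. The 95% intervals were widest for Notch3, -0.52 to 0.37 at 0 h and -0.63 to 0.26 at 8 h, and narrowest for Notch1, -0.14 to 0.18 and -0.17 to 0.16.

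Jag1 came nearest to a difference. Its p300kd values lay below the NS values at 8 h without overlap, which held in that direction for 6.29% of all genes. At 0 h the groups overlapped for every member, where 13% of all genes did not overlap. Jag1 was lower with the p300 siRNA in 6 of 6 within-experiment differences, as was Notch3, and 14.1% of all genes kept 1 sign in this way. The mean differences were -0.18 at 0 h and -0.12 at 8 h, and averaged -0.15 (SE 0.0598, 95% interval -0.28 to -0.023, limma adjusted p = 0.294). Hey1 averaged -0.15 (SE 0.0622, 95% interval -0.28 to -0.013, limma adjusted p = 0.341) and was lower in 5 of 6. Hes1 averaged -0.044 and Notch1 0.0092. Of the 68 further pathway genes 1, Ep300 itself, was called at each time and averaged (log2 change averaged -0.93, limma adjusted p = 0.00212). With the block 10 were called averaged over both times, 2 higher and 8 lower.

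Some markers of other cells moved with the siRNA. Averaged over both times 1.25% of all genes were called. Of 10 macrophage and leukocyte markers 4 fell in this average (Mrc1, Csf1r, Ptprc and C1qb), with a list median of -0.34. Of 11 smooth muscle and pericyte markers 1 fell, the pericyte gene Cspg4 (-0.37), with a list median of -0.011. Of 12 fibroblast markers 0 were called, with a list median of -0.11. None of these calls held without experiment 2 or 3, but there 0 of all genes were called for the average, Ep300 included among those lost. With the block, at 9.51% of all genes, Cd68, Itgam and C1qa came in as lower (limma adjusted p = 2.026e-04 to 0.0091). Of the fibroblast list Postn, Dcn, Col3a1, Col1a1, Pdgfra and Fn1 came in as lower (4.755e-04 to 0.026). The mural genes Pdgfrb and Abcc9 came in as lower and Tagln and Mcam as higher (0.0063 to 0.042). Kdr came in as lower (0.042) and the myocyte gene Mb as higher (0.013). The summed intensity of the macrophage and leukocyte list ran from 5509 to 6867 in NS and from 4076 to 5620 in p300kd cells at 0 h, and from 5520 to 6561 and from 4211 to 5084 at 8 h. The dimmest of them, Cd3e, had values between 5.86 and 6.14. The part of other cells in the member differences was not tested.

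**Figure D4:**
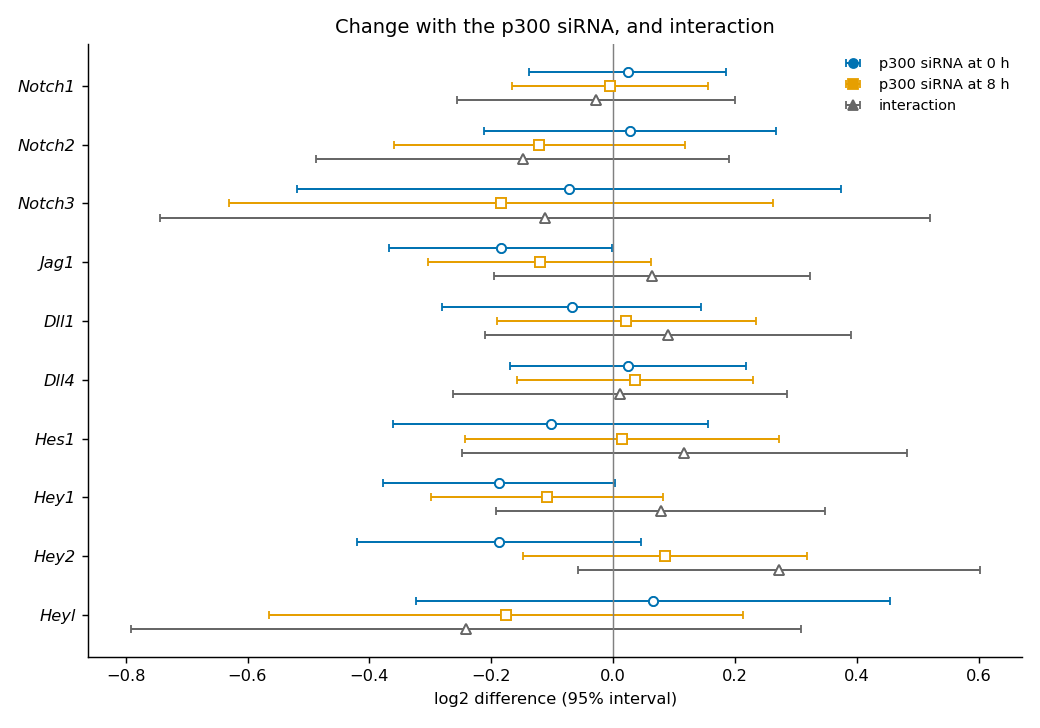
Log2 difference of p300kd minus NS cells at 0 h (circles) and 8 h (squares), and the interaction (triangles, the drug change in p300kd cells minus that in NS cells), for each of the 10 genes with 95% intervals from the limma fit. All symbols are open because no adjusted p was under 0.05. Every interval at 8 h crosses 0, and Notch3 and Heyl have the widest.

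The arrays measure Ep300 RNA and not p300 protein. The interaction asks whether the drug response differed with the p300 siRNA. It called 0 of the 10 members and 0 of all 14506 genes in limma (0%), also with the experiment as a block, and at an unadjusted p under 0.05 it held 0 members and 1.57% of all genes. The largest difference was that of Hey2, whose fall was smaller in p300kd cells by 0.27 (SE 0.152, 95% interval -0.058 to 0.60, limma adjusted p = 0.9998). Heyl had the largest in the other direction, -0.24 (SE 0.254, 95% interval -0.79 to 0.31). For Hes1 it was 0.12 (SE 0.168, 95% interval -0.25 to 0.48) and for Notch1 -0.029 (SE 0.105, 95% interval -0.26 to 0.20).

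The experiments differed most for Notch3 and Heyl. Of the variance of Notch3 about its group means 92.2% followed the experiment, and of Heyl 89.5%, where the median over all genes was 46.9%. Experiment 1 stood above the mean of the experiments by 0.30 for Notch3 and by 0.28 for Heyl. It was highest in all 4 groups for 5 members (Notch1, Notch2, Notch3, Hey1 and Heyl), and for 8.47% of all genes. Over the 12 arrays the deviations of Notch3 and Heyl from their group means correlated at r = 0.94, which describes arrays that share 3 experiments.

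Some mural genes were also highest in experiment 1, and so were some fibroblast and endothelial genes. The pericyte gene Rgs5 stood higher in experiment 1 by 0.50, Pdgfrb, a receptor of pericytes, by 0.29, and Myh11, the smooth muscle myosin gene, by 0.29, each highest in experiment 1 in all 4 groups. Deviations correlated with those of Rgs5 at r = 0.87 for Notch3 and 0.94 for Heyl, with those of Pdgfrb at 0.83 and 0.89, and with those of Myh11 at 0.70 and 0.80. Over the other 8 mural markers r ran from -0.41 (Kcnj8) to 0.37 (Tagln) for Notch3 and from -0.55 (Kcnj8) to 0.60 (Tagln) for Heyl. For 3 endothelial genes r was -0.010 and 0.057 with Cdh5, -0.40 and -0.47 with Pecam1, and -0.66 and -0.64 with Kdr. Correlations with the other endothelial markers were not computed. Of those markers, Flt1, Esam and Erg were highest in experiment 1 in all 4 groups, as Notch3 and Heyl were. Of the 11 smooth muscle and pericyte markers 9 had their highest mean deviation in experiment 1, against 7 of 12 fibroblast, 4 of 12 endothelial and 1 of 14 myocyte markers and 4793 of 14506 genes. The median deviation in experiment 1 was 0.103 for the mural and 0.102 for the fibroblast list, -0.0079 for the endothelial and -0.096 for the myocyte list. The fibroblast genes Col1a1, Col1a2, Col3a1, Postn, Fn1 and Ddr2 were highest there in all 4 groups. Their correlations with Notch3 and Heyl were not computed. The mean log2 level of the mural list at 0 h in NS cells was 11.63, 11.48 and 11.33 in experiments 1, 2 and 3. Its summed intensity ran from 54445 to 65814 in NS and from 57601 to 67094 in p300kd cells at 0 h, and from 55267 to 64685 and from 53496 to 66234 at 8 h. The brightest genes of the list weigh most in this sum, among them Acta2 and Des (means of 14.23 and 13.83 in NS cells at 0 h). The part of mural, fibroblast or endothelial cells in the Notch3 and Heyl values was not tested.

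With the drug these markers did not move as 1 list. Of 11 mural markers 3 fell and 1 rose in each kind of cell: Cspg4 changed by -1.09 and -1.12, Pdgfrb by -0.85 and -0.93 and Kcnj8 by -0.52 in each, and Abcc9 rose by 0.53 and 0.64. The call of Pdgfrb was lost without experiment 2 or 3 in NS cells and without experiment 3 in p300kd cells. That of Abcc9 was lost without experiment 1 or 2, NS 0 h array 2 or NS 8 h array 3 in NS cells and without experiment 2 in p300kd cells. Rgs5 differed by 0.43 and 0.65 and Myh11 by 0.28 and 0.29 without passing. With the experiment as a block both passed (limma adjusted p = 2.244e-04 and 4.443e-06 for Rgs5, 0.0215 and 0.0159 for Myh11). The block also brought in Acta2 in p300kd cells, which differed by -0.11 (limma adjusted p = 0.00696). Of 12 endothelial markers Kdr changed by -0.92 and -0.98 and Cdh5 by -0.40 and -0.27, while Cldn5 rose by 0.32 in NS cells. The call of Cdh5 in p300kd cells was lost without experiment 2 or 3 or p300kd 0 h array 2, and that of Cldn5 without experiment 3, NS 0 h array 2 or NS 8 h array 3. The endothelial summed intensity ran from 3041 to 3442 before and from 2885 to 3355 after the drug in NS cells, and from 2856 to 3327 and from 2822 to 3163 in p300kd cells. Flt1, a VEGF receptor gene like Kdr, differed by 0.47 and 0.48 without passing (limma adjusted p = 0.102 and 0.0843; 4.453e-04 and 2.909e-04 with the block). The block also brought in Tek as lower in both kinds of cell, with differences of -0.35 and -0.32 (limma adjusted p = 0.0173 and 0.0249). In NS cells it brought in Pecam1 as lower and Egfl7 as higher (0.0328 and 0.0234). The endothelial list medians were 0.0070 and -0.0074. Of 14 myocyte markers 0 were called in either kind of cell by limma, with 0 and 1 at an unadjusted p under 0.05 and list medians of 0.033 and 0.036. With the experiment as a block Ckm passed in NS cells, higher by 0.29 (limma adjusted p = 0.0145). In p300kd cells the block brought in Ckm, Tnnt2, Tnni3 and Myl7 as higher and Pln as lower (limma adjusted p = 0.00862 to 0.0248). Of 12 fibroblast markers Pdgfra changed by -0.79 and -0.88 and Thy1 rose by 0.49 and 0.51, the latter not without experiment 3 in NS cells. With the block Ddr2 passed as lower in both kinds of cell (limma adjusted p = 0.042 and 8.112e-04). In p300kd cells the block brought in Col3a1, Dcn and Mfap5 as higher (0.00722 to 0.0367). Of 10 macrophage and leukocyte markers Csf1r changed by -0.54 and -0.66, and in p300kd cells Ptprc changed by -0.37 and C1qa rose by 0.25. The Ptprc call was lost without experiment 1 or 2, p300kd 0 h array 1 or 2 or p300kd 8 h array 1. That of C1qa was lost without any 1 experiment, and without NS 0 h array 2 or 3 or any p300kd array except the 0 h array of experiment 1. With the block Aif1 passed as higher in both kinds of cell (limma adjusted p = 0.0273 and 0.0327). So did C1qb in NS cells (0.0331) and Itgam in p300kd cells (0.0343). The part of cell composition in the member changes was not tested.

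**Figure D5:**
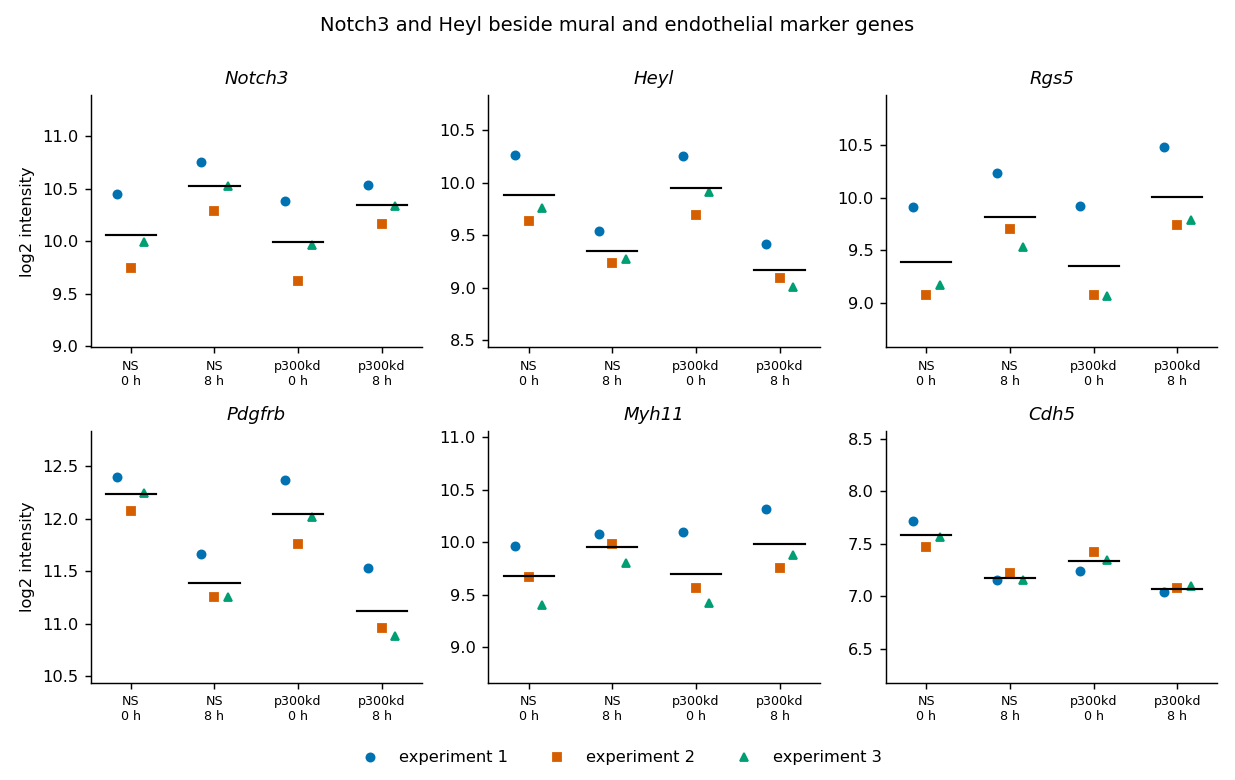
Log2 intensity of Notch3, Heyl, the mural genes Rgs5, Pdgfrb and Myh11 and the endothelial gene Cdh5 on each array, in 4 groups of 3, with symbols for the experiment and a bar for the group mean. Experiment 1 stands highest in every group for each gene but Cdh5. The endothelial genes Flt1, Esam and Erg, not shown, were also highest in experiment 1 in every group.

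Among 7246 genes above the median level, those whose levels followed a member most closely over the 12 arrays were found by Pearson's r, given as a description. The arrays share groups and experiments. For Hey2 they were Urgcp (r = 0.995), Bambi (0.988) and the cardiac factor gene Gata5 (0.988). Urgcp changed by -1.64 and Gata5 by -2.39 in NS cells. For Hes1 they were Zfp276 (0.995), the polarity gene Pard3 (0.993) and Arnt (0.988), with -0.47, -0.51 and -0.98. Notch1 was followed by Ankrd13d (0.992), the immediate early gene Egr3 (0.991) and Fam83h (0.989), which differed by 1.53, 0.91 and 1.32. Heyl was followed by Snai1 (0.983), Hdac7 (0.978) and Sorbs3 (0.966), and Notch2 by Slc35c2 (0.981), Ripor1 (0.979) and Sorbs3 (0.979). For Dll1 they were Slc43a2 (0.953), Epha2 (0.950) and Dclre1b (0.949), for Dll4 Coq8b (0.926), Fbxl17 (0.916) and Rxfp1 (0.915), and for Jag1 Pik3ip1 (0.952), Pacsin2 (0.950) and Card6 (0.947). Hey1 was followed by Cux1 (0.988), Col5a1 (0.958) and Ucp2 (0.954), and Notch3 by the elastic fibre genes Ltbp4 (0.932) and Fbln5 (0.916) and by Cat (0.924).

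Among the members themselves Notch1 and Hey2 had r = -0.98 and Hes1 and Hey2 0.97 over the arrays. Once group means were removed these were -0.48 and 0.23. Notch2 and Heyl had 0.97 with the group means and 0.90 without them.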

How the data were processed

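RNA of 12 cultures was measured on Affymetrix arrays, with 1 intensity per probe set deposited by the authors on a linear scale (8.05 to 25315). The submitters' processing notes name Expression Console 1.1 and RMA, a method that subtracts background, makes arrays comparable by quantiles and combines a probe set's probes. How RMA values came to be linear is not given in the sources used here, and the scale was read from the values. Log2 was taken here. The array medians of log2 intensity lay between 7.73 and 7.80, and precision is limited by how many arrays there were.

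Groups and replicate numbers came from the labels. Of 29214 probe sets, 15310 had 1 gene symbol in the platform annotation, 323 several and 13581 none. Only those with 1 symbol were used, and the brightest over all arrays where a gene had several (527 genes), giving 14506 genes. A RefSeq table of GRCr8, used for names and promoter sequences, held the Entrez identifiers of 14480.

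The means of the 4 groups were estimated together by limma 3.58.1 under R 4.3.3, with eBayes set to follow a trend and 8 degrees of freedom left, two-sided, after the script was tested on simulated data. P-values were adjusted by Benjamini-Hochberg over all genes, and a gene was called at an adjusted p under 0.05. Intervals are 95%. Tables and figures used Python 3.11.15, pandas 2.3.3 and matplotlib 3.10.9.

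The replicate numbers pair the arrays. Of their deviations from group means, 18 pairs of arrays with 1 number had a median correlation of 0.504 (0.172 to 0.689) and other pairs -0.271. Each of the 12 arrays correlated best with one of its number. The number is therefore called the experiment, and the fit with it as a block is an alternative.

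The members, pathway list, marker lists and motifs were chosen with earlier results of these data known. Named beside the members are, per pathway class, up to 3 called genes of largest change per direction in the drug comparisons, every called gene in the siRNA comparisons and the uncalled gene of highest level, plus Ep300 and the 3 genes most like each member. The alternatives were the block, fixed or random, only the groups compared, dim genes left out, 2 other normalisations, other trend settings, other probe set rules, an offset of 16, and leaving out each experiment or array.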

Additional observations from a re-analysis of the deposited data

Results flagged for a closer look

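The mean p300 siRNA difference of Hey2 changed sign between times, but this change did not pass its test. It was the largest interaction among the members, so its signs describe an extreme value. Within experiments 1, 2 and 3 the p300kd minus NS difference of Hey2 was -0.12, -0.22 and -0.22 at 0 h and 0.026, 0.0045 and 0.22 at 8 h, so all 3 were below 0 before the drug and all 3 above 0 after it. The change between times was 0.27 (log2 scale), and its test, the limma interaction, gave an unadjusted p of 0.0979 and an adjusted p of 0.9998. At 8 h the values of experiments 1 and 2 lay close to 0.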

How the results depend on the processing

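Of 1534 member values in 26 alternatives, 1464 kept their side of the threshold, 58 lost a call, 12 gained one and 0 called values reversed. Sign changes, 57 with Ep300 counted, came only among values that were not called. The members called after the drug ranged from 4 to 8 in NS cells and from 4 to 9 in p300kd cells when an experiment or an array was left out, and reached 10 in each with the replicate block. For the siRNA comparisons and the interaction the count was 0 throughout, the replicate block included. Beside the losses given with each gene, centring on the median ended the calls of Notch2 and Heyl in NS cells (limma adjusted p = 0.0588 and 0.0727) and Jag1 in p300kd cells (0.115), and brought in Notch3 and Hey1 in NS cells (0.0465 and 0.0152); the cause was not tested. Quantile normalisation ended those of Dll4 in both (0.0957 and 0.0953), Heyl in NS cells (0.107) and Jag1 in p300kd cells (0.106), and brought in Hey1 in NS cells (0.0314). Without a trend (0.0523) and with the offset (0.0514) Dll4 was lost in NS cells, and with only the groups compared (0.0792) in p300kd cells. Over all genes the counts of 3992, 4560, 3, 7 and 181 for the drug in NS and p300kd cells and the siRNA at 0 h, at 8 h and averaged became 6317, 6639, 390, 455 and 1380 with the replicate block, 1782, 2269, 0, 0 and 0 without experiment 2, and 1937, 2359, 0, 0 and 0 without experiment 3. Other moves of these siRNA counts by over 1.5 times lay between 0 and 816. The fit of only the groups compared gives no averaged value or interaction, the filter on dim genes removed Dll4, and the planned search for protein motifs was not run.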
